A study of Mus musculus with 6 samples.

Results

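The 10 genes described here encode the cytosolic and mitochondrial heat shock proteins Hspa1a, Hspa1b, Hspa8, Hsph1, Hspb1, Hsp90aa1, Hsp90ab1, Dnajb1, Hspd1 and Hspe1. They were taken by symbol from the deposited expression table of 39179 genes, each symbol matching 1 row, and no measured value entered their choice. RNA was sequenced from endothelial cells of the liver of wild-type 129S6/SvEvTac male mice. The high_iron mice ate a purified AIN-93G diet with 10000 ppm carbonyl iron for 4 weeks from 3 weeks of age, and the control_iron mice ate the same type of diet with 37 ppm iron as ferric citrate; all were sampled at 7 weeks. There were 3 biological replicates in each group and 6 libraries, and the labels do not say whether a library came from 1 mouse or several. The sort kept CD31+ CD146+ cells that were negative for CD45, lineage markers, MHCII and CD64, so every library is a gated population with no unsorted liver beside it.

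Heat shock proteins are molecular chaperones, proteins that help others fold, refold or be cleared. HSP70 proteins bind exposed stretches of unfolded clients, J-domain proteins deliver the clients and start ATP hydrolysis, and HSP110 proteins exchange the nucleotide so that the client is released. HSP90 proteins mature signalling clients such as kinases and steroid receptors, small heat shock proteins hold aggregation-prone proteins, and the HSP60 and HSP10 chaperonin folds imported proteins inside mitochondria. Heat, oxidants and misfolded protein activate heat shock factor 1 (HSF1), which binds heat shock elements, repeats of GAA and its complement TTC in alternating orientation, before the inducible members of the family.

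Promoter sequence from RefSeq on GRCm38.p6 was matched by symbol for 7 of the 10 genes, in 10 windows of 300 bases; Hspa8, Hsp90aa1 and Hsp90ab1 were without an entry. Below are the 150 bases before the start site of 5 genes, shown because they hold the matches to the element and because they include genes whose values were higher, near level and lower in the high_iron libraries. Capitals mark each match to GAANNTTC or TTCNNGAA, the 2-unit element, which reads the same on both strands.
Hspa1a, chr17:34972157-34972306, minus strand: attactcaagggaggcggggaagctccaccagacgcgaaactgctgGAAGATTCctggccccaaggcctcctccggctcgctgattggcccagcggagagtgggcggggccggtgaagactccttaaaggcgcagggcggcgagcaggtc
Hspa1b, chr17:34959239-34959388, minus strand: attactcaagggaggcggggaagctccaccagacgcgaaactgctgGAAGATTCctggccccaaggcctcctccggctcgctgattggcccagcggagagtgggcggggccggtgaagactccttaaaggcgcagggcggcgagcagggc
Hsph1, chr5:149636337-149636486, minus strand: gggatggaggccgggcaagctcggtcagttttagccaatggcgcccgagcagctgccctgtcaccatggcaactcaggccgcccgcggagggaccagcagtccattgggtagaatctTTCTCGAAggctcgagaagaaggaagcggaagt
Hspb1, chr5:135887769-135887918, plus strand: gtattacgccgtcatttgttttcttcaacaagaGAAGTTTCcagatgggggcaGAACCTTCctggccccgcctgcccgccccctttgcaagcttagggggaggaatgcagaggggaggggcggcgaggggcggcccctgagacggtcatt
Hspe1, chr1:55087998-55088147, plus strand: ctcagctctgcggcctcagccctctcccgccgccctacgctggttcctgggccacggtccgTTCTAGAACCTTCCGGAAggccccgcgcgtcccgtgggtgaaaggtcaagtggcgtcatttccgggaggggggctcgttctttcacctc
The 300-base windows of Hspa1a and Hspa1b, the heat-inducible HSP70 pair, differed at 4 bases (98.7% identical) and carried the same match 104 bases before the start site. Hspe1 and Hspd1, which encode the HSP10 lid and the HSP60 barrel of the chaperonin, lie head to head on chromosome 1, and the Hspe1 window shares 285 bases with 1 of the 2 Hspd1 windows. In that shared stretch both hold the same run of 18 bases at chr1:55088059-55088076, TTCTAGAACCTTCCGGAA on the Hspe1 strand, which contains the 3-unit element GAANNTTCNNGAA or its reverse complement TTCNNGAANNTTC. Hsph1 held a 3-unit match after its start site, TTCTGGAAAGTTC at chr5:149636288-149636300, beside the 2-unit match printed above. The 2 Dnajb1 windows and the other Hspd1 window did not hold these letters. Of all 32851 RefSeq windows of this length, 4946 (15.1%) held the 2-unit element and 198 (0.603%) the 3-unit element, each 3-unit match also counting as a 2-unit one. A match describes the letters and does not show that a factor binds there.

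**Figure D1:**
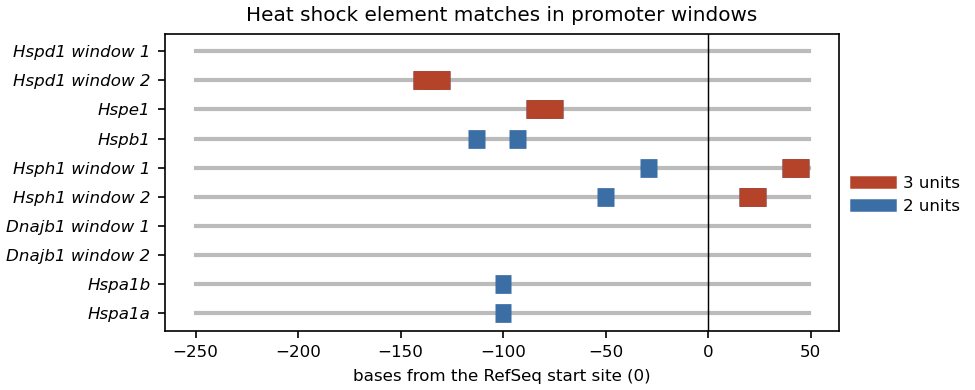
Heat shock element matches in the 10 promoter windows matched to 7 genes, from 250 bases before to 50 bases after the RefSeq start site at 0 (x axis, bases). Blue blocks are 2-unit and red blocks 3-unit matches; Hspe1, window 2 of Hspd1 and both Hsph1 windows hold a 3-unit match, and both Dnajb1 windows hold none.

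Reads assigned to genes numbered 12963510 to 21663543 per library, and the unit of level is CPM, a gene's reads over its library's scaled size. All 12 endothelial markers were present, with a summed level of 19844 to 20738 CPM in high_iron and 20712 to 22345 CPM in control_iron libraries. Fold changes are differences of mean log2(CPM + 1), high_iron over control_iron, which understate the change of genes near 1 CPM, and were tested with limma with Benjamini-Hochberg adjustment over the 12980 genes that had at least 1 CPM in at least 3 libraries. Of the endothelial markers 0 were called at the adjusted threshold of 0.05, and the smallest p values were those of Lyve1 and Mcam (log2 fold change 0.64 ± 0.16 and -0.91 ± 0.31, limma adjusted p = 0.12 and 0.28). In these data, fewer cells of a type and less RNA per cell cannot be told apart.

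No heat shock protein gene passed the adjusted threshold of 0.05: limma called 0 of the 9 tested members, where it called 133 of 12980 genes (1.02%). Without adjustment 5 of the 9 had p under 0.05, against 12.1% of all genes, and all 5 had higher means in high_iron (7.3% of all genes in that direction): Hspa1a, Hspa1b, Hspa8, Hsph1 and Dnajb1, which encode the HSP70 proteins, their HSP110 partner and their J-domain partner. edgeR called 0 of the 9 (0.924% of all genes) and DESeq2, which made more false calls than either on simulated reads, called 1, Hspa8 (3.27% of all genes). The median log2 fold change was 0.47 over the 9 genes and -0.003 over all genes tested, and 8 of 9 were positive, against 49.5% of all genes. The intervals of the HSP90 and mitochondrial chaperonin genes included 0, and Hspb1, too sparse for the fit, had lower values in every high_iron library. Without high_iron replicate 2, the median log2 fold change was 0.54 over the 9 genes and -0.004 over all genes, with Hsp90ab1 and Hsp90aa1 then negative. The count with unadjusted p under 0.05 was then 2 of 9, Hspa8 and Dnajb1 (7.04% of all genes). It was 6 without high_iron replicate 1, with Hspd1 added (11.9%), and 2 without high_iron replicate 3, Hspa8 and Hsph1 (7.3%). Without control_iron replicates 1, 2 and 3 in turn it was 4 (20.7%), 3 (12.5%) and 1, Hspa8 (8.82%).

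**Figure D2:**
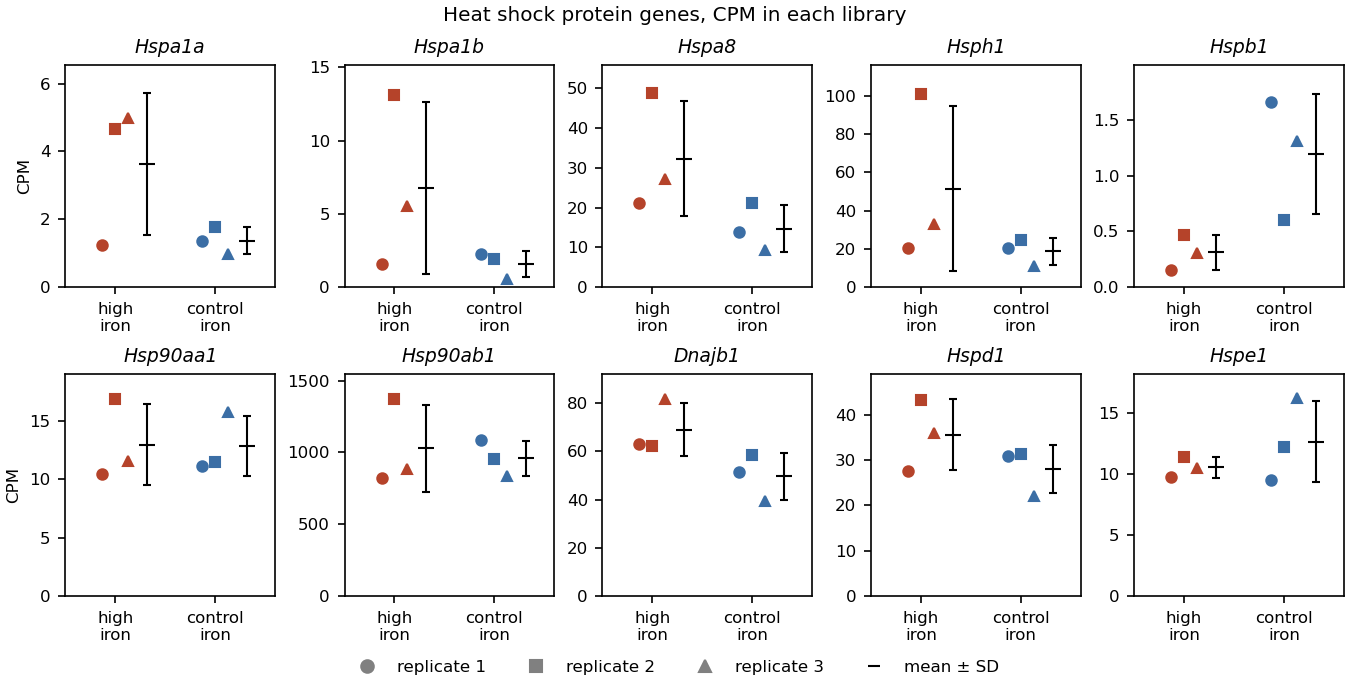
CPM of the 10 heat shock protein genes in each library (y axis, linear, a scale for each gene), high_iron libraries in red on the left and control_iron libraries in blue on the right. Symbols give the replicate and black bars the mean ± SD of 3 libraries; high_iron replicate 2 is the highest library for Hspa1b, Hspa8, Hsph1, Hsp90aa1, Hsp90ab1 and Hspd1.

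Hspa1a and Hspa1b are single-exon genes that encode the stress-inducible HSP70, on chromosome 17 in the major histocompatibility complex (Hspa1a at chr17:34969190-34972156, Hspa1b at chr17:34956436-34959238, mm10). Hspa1b had 1.59, 13.1 and 5.54 CPM in high_iron replicates 1 to 3, against 2.23, 1.90 and 0.570 CPM in control_iron replicates 1 to 3. The high value of replicate 2 was 2.37 times the next library, while high_iron replicate 1 lay below 2 of the 3 control_iron libraries, so the groups overlapped. Its log2 fold change was 1.34 ± 0.54 (SE; 95% interval 0.12 to 2.56; limma adjusted p = 0.37), and it was 0.75 (interval -0.31 to 1.80) without high_iron replicate 2. Hspa1a had 1.23, 4.66 and 4.997 CPM in high_iron and 1.35, 1.76 and 0.968 CPM in control_iron libraries. Again replicates 2 and 3 of high_iron were above every control_iron library and replicate 1 was not (log2 fold change 0.86 ± 0.38, interval 0.01 to 1.70, limma adjusted p = 0.41). The transcripts are 99.2% identical over 74.0% of Hspa1a, so reads could be split between them or lost, and each gene's own value is uncertain. Summed, the pair had 2.82, 17.8 and 10.5 CPM in high_iron and 3.58, 3.67 and 1.54 CPM in control_iron libraries. That sum differed by 1.31 ± 0.51 (limma adjusted p = 0.36). The protein-coding gene Gm20481 lies over 19.0% of the exon bases of Hspa1a on the opposite strand. The library kit does not mark strand, so reads over those shared bases cannot be told apart by strand.

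Hspa8 (chr9:40800984-40810087) encodes HSC70, the HSP70 present in unstressed cells, which also uncoats clathrin vesicles. It had 21.15, 48.8 and 27.1 CPM in high_iron and 13.8, 21.08 and 9.28 CPM in control_iron libraries. The groups did not overlap, though high_iron replicate 1 stood barely above control_iron replicate 2. The log2 fold change was 1.07 ± 0.34 (interval 0.31 to 1.83), the smallest p of the 9 genes, with a limma adjusted p of 0.23 and a DESeq2 adjusted p of 0.040. Without high_iron replicate 2 it was 0.74 (interval 0.02 to 1.46) and without control_iron replicate 3 it was 0.80 (interval 0.03 to 1.57). Of 6 near-identical copies 2 are in the table, and adding those left the log2 fold change at 1.07; whether reads were lost to the others was not tested. Hspa8 and Dnajb1 were the 2 tested members whose groups did not overlap, both higher in high_iron, where 9.46% of all genes had no overlap in that direction and 17.9% in either.

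Hsph1 (chr5:149614287-149636376) encodes HSP110, a nucleotide exchange factor for HSP70 that is also a chaperone itself. It had 20.7, 100.7 and 32.9 CPM in high_iron and 20.4, 24.5 and 11.0 CPM in control_iron libraries. High_iron replicate 2 reached 3.06 times the next library, and high_iron replicate 1 was within the control_iron range. The log2 fold change was 1.17 ± 0.50 (interval 0.06 to 2.28; limma adjusted p = 0.39), and without high_iron replicate 2 it was 0.54 (interval -0.24 to 1.31). No near-identical copy of Hsph1 was found.

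Dnajb1 (chr8:83608193-83612653) encodes HSP40, the J-domain protein that pairs with inducible HSP70. It had 63.2, 62.1 and 81.6 CPM in high_iron and 51.3, 58.6 and 39.3 CPM in control_iron libraries. All 3 high_iron libraries were above all 3 control_iron libraries, and replicate 3 was the highest in one group and the lowest in the other. The log2 fold change was 0.47 ± 0.18 (interval 0.06 to 0.88; limma adjusted p = 0.35). Of these 5 genes Dnajb1 was the one whose value was not smaller without high_iron replicate 2: it was then 0.54 (interval 0.05 to 1.02), and without control_iron replicate 3 it was 0.31 (interval -0.06 to 0.68).

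The cytosolic HSP90 genes showed no difference that the test could tell from 0. Hsp90ab1 (chr17:45567775-45573271), the constitutive HSP90 beta, had 823, 1373 and 888 CPM in high_iron and 1083, 954 and 837 CPM in control_iron libraries. High_iron replicate 2 was the highest and high_iron replicate 1 the lowest of all 6, so the high_iron range enclosed the control_iron one (log2 fold change 0.07 ± 0.21, interval -0.39 to 0.54, limma adjusted p = 0.91). Hsp90aa1 (chr12:110690605-110702728), the inducible HSP90 alpha, had 10.4, 16.9 and 11.5 CPM in high_iron and 11.2, 11.5 and 15.8 CPM in control_iron libraries. One library in each group, high_iron replicate 2 and control_iron replicate 3, stood above the other 4 (log2 fold change 0.002 ± 0.23, interval -0.52 to 0.52, limma adjusted p = 0.999). Both genes turned negative when high_iron replicate 2 was left out, at -0.16 for Hsp90ab1 and -0.19 for Hsp90aa1. The intervals reach 0.54 for Hsp90ab1 and 0.52 for Hsp90aa1, so they do not show that the levels were equal. Hsp90aa1 has 2 near-identical pseudogenes that together had 4.92 to 8.67 CPM in high_iron and 4.05 to 6.95 CPM in control_iron libraries, and summing them with it gave 0.05 (interval -0.47 to 0.57).

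The mitochondrial chaperonin genes had log2 fold changes of opposite sign, neither past the test. Hspd1 (chr1:55077835-55088243, HSP60) had 27.5, 43.2 and 35.9 CPM in high_iron and 30.8, 31.2 and 21.98 CPM in control_iron libraries. The groups overlapped through high_iron replicate 1 (log2 fold change 0.33 ± 0.21, interval -0.14 to 0.79, limma adjusted p = 0.55). Its processed pseudogene Hspd1-ps3, 99.0% identical over 71.1% of the transcript, was listed at 11.2, 22.8 and 16.1 CPM in high_iron and 15.8, 13.7 and 7.52 CPM in control_iron libraries. The 2 highest and the 2 lowest libraries were the same as for Hspd1, and the sum gave 0.36 (interval -0.16 to 0.88, limma adjusted p = 0.55). Hspe1 (chr1:55088132-55091307, HSP10) had 9.75, 11.4 and 10.5 CPM in high_iron and 9.56, 12.3 and 16.2 CPM in control_iron libraries. It was the one tested gene with a negative value (-0.22 ± 0.22, interval -0.71 to 0.28, limma adjusted p = 0.71), with control_iron replicate 3 its highest library. Hspe1 has 1 near-identical copy, the protein-coding AC117239.2, 99.0% identical over 66.5% of the transcript. That copy is not among the listed genes, and whether reads were lost to it was not tested. Hspd1 and Hspe1 share 112 exon bases on opposite strands, 4.24% of Hspd1 and 7.60% of Hspe1.

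Hspb1 (chr5:135887919-135889563) encodes HSP25, the mouse form of the small heat shock protein HSP27, which binds unfolding proteins and actin filaments. It had 0.154, 0.472 and 0.308 CPM in high_iron and 1.66, 0.604 and 1.31 CPM in control_iron libraries, which is 3, 8 and 4 reads against 32, 13 and 23 reads. All 3 high_iron libraries were below all 3 control_iron libraries, and high_iron replicate 1 lay at the floor of 3 reads. The 15 reads against 68 give a ratio of 0.26 per unit of depth, with an exact 95% interval of 0.138 to 0.460 that covers counting error only. An exact two-sided permutation test over the 6 libraries gave p = 0.1, the smallest that 3 against 3 can give, and Hspb1 did not pass the filter because 0 of 3 high_iron and 2 of 3 control_iron libraries reached 1 CPM. With no filter limma put it at -0.72 with an adjusted p of 0.32. The pseudogene Hsp25-ps1 and the gene Gm9817 are near-identical copies of Hspb1, so reads could be split between them. Summed with both, Hspb1 had 0.257, 0.590 and 0.308 CPM in high_iron and 1.71, 0.650 and 1.37 CPM in control_iron libraries, still without overlap. Whether reads were lost between the copies was not tested.

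**Figure D3:**
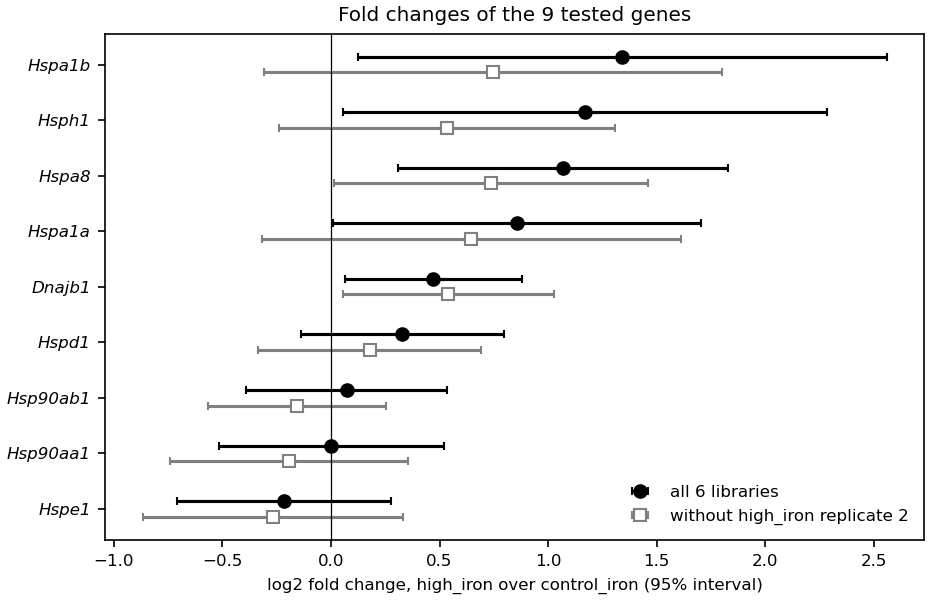
Log2 fold change (x axis, high_iron over control_iron on log2(CPM + 1)) of the 9 tested genes with 95% limma intervals, for all 6 libraries (black) and without high_iron replicate 2 (grey). Leaving it out brings Hspa1b to 0.75, Hsph1 to 0.54, Hsp90ab1 to -0.16 and Hsp90aa1 to -0.19, and leaves Dnajb1 at 0.54.

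Per length, the genes covered a wide range of levels. On the deposited RPKM scale Hsp90ab1 averaged 377 ± 110.1 in high_iron and 351 ± 45.2 in control_iron libraries (SD, n = 3 each), and gave 80.8% to 88.4% of the summed CPM of the family in every library. Dnajb1 followed at 30.5 ± 4.86 RPKM in high_iron and 22.02 ± 4.32 RPKM in control_iron, and Hspd1 at 13.5 ± 2.99 and 10.6 ± 1.98 RPKM in the same order of groups. Hspa8, Hspe1, Hsph1 and Hsp90aa1 came next with means over the 6 libraries of 7.68, 7.42, 4.99 and 2.90 RPKM, an order whose neighbours overlapped between libraries. Hsp90ab1 and Dnajb1 stood above the next gene in every library. Hspa1b, Hspb1 and Hspa1a were under 1 RPKM on average (0.832, 0.520 and 0.489). The inducible HSP70 pair had listed levels among the lowest of the members, on a length scale that is itself uncertain. The deposited length is 1.72 times the annotated exon length for Hspa1a and 1.79 times for Hspa1b. Reads of the pair and of Hspa8 could also be lost to near-identical copies. Whether their listed levels are too low for that reason was not tested. On annotated exon length Hspe1 moved above Hspa8 and Hspa1a above Hspb1.

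The library that was highest was often the same one. High_iron replicate 2 was the highest of the 6 libraries for 6 of the 9 tested genes (17.3% of all genes), and control_iron replicate 3 the lowest for 6 of 9 (28.1% of all genes). The summed level of all 10 members was 979, 1675 and 1099 CPM in high_iron and 1226, 1117 and 953 CPM in control_iron libraries. Only high_iron replicate 2 was above the control_iron range of that sum. Leaving out Hsp90ab1, which gave most of it, the sum was 156, 301 and 210.5 CPM in high_iron and 142, 164 and 116 CPM in control_iron libraries. In this smaller sum high_iron replicate 1 was inside the control_iron range, and replicates 2 and 3 were above it. At least 2 times every other library in high_iron replicate 2 were 24 of the 12980 genes (0.185%), and 2 of them were members, Hsph1 and Hspa1b. Among the other 22 were the red cell membrane genes Sptb and Slc4a1 and the red cell enzyme gene Bpgm, named after their values were seen.

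Markers of other cells in the liver differed between libraries too. Of 10 erythroid genes tested, from a list added after the data were seen, 0 passed the limma test, all 10 were highest in high_iron replicate 2, and the list summed to 1298, 4924 and 871 CPM in high_iron and 1205, 3856 and 1500.4 CPM in control_iron libraries. The band 3 gene Slc4a1 had 7.75, 29.2 and 3.08 CPM in high_iron and 4.00, 3.11 and 0.854 CPM in control_iron libraries. Control_iron replicate 2 also had a high erythroid sum. The 14 hepatocyte genes, 0 of them called, summed to 682, 1349 and 1110.1 CPM in high_iron and 298, 1344 and 804 CPM in control_iron libraries. All 14 had a positive log2 fold change (49.5% of all genes), with a median of 0.59. Their smallest p values were those of Fgb and Cyp3a11 (log2 fold change 1.16 ± 0.28 and 1.00 ± 0.30, limma adjusted p = 0.098 and 0.19). The stellate cell and fibroblast list, with 10 genes tested, summed to 359, 1186 and 705 CPM in high_iron and 172, 1159 and 605 CPM in control_iron libraries, and 1 gene, the growth factor Hgf, was called higher. Both sums were nearly as large in control_iron replicate 2 as in high_iron replicate 2. Of the 15 Kupffer cell and macrophage genes 3 were called higher (Clec4f, Csf1r and Marco), against 0.832% of all genes. All 15 had a positive log2 fold change and an unadjusted limma p under 0.05 (7.3% of all genes in that direction). Their median log2 fold change was 1.40, and DESeq2 called 10 (3.27% of all genes). The list summed to 527, 262 and 359 CPM in high_iron and 79.0, 179 and 98.3 CPM in control_iron libraries. Within high_iron that sum was highest in replicate 1. Of 4 tested lymphocyte genes 1 was called (Ighm, higher), and the list summed to 13.1 to 19.9 CPM in high_iron and 4.74 to 8.03 CPM in control_iron libraries. No gene found of these 5 lists was at 0 in all libraries, and their part in the values of the heat shock protein genes was not tested.

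Genes used as signs of RNA quality, nuclear and mitochondrial transcripts, had 0 of 6 tested called. Malat1, a nuclear long noncoding RNA, had 2882, 2473 and 2600.4 CPM in high_iron and 3825, 4189 and 4787 CPM in control_iron libraries. It was lower in every high_iron library (log2 fold change -0.68 ± 0.18, limma adjusted p = 0.13, DESeq2 adjusted p = 5.5e-04). The mitochondrial gene mt-Co1 had 9981, 17190.2 and 12199 CPM in high_iron and 9215, 12532 and 9255 CPM in control_iron libraries (0.32 ± 0.27, limma adjusted p = 0.65). Like Hsph1 and Hspa1b, mt-Co1 was highest in high_iron replicate 2, which held for 2 of the 6 genes of this list. The mitochondrial genes mt-Nd1 and mt-Nd4 were instead highest in control_iron replicate 3, at 9943 and 8733 CPM. The part of RNA quality in the members' values was not tested.

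Genes that tissue dissociation is known to induce, such as Fos and Jun, had 1 of 17 tested genes called. The called gene was Socs3, a feedback inhibitor of cytokine signalling, at 72.0 ± 3.69 CPM in high_iron and 36.8 ± 6.78 CPM in control_iron (SD, n = 3 each; log2 fold change 0.97, limma adjusted p = 0.031), a call that 7 of 16 alternatives ended. The list had a median of -0.09, 0 of the 17 genes were highest in high_iron replicate 2, and its sum was 2155, 1605 and 1673 CPM in high_iron and 1943, 1827 and 1855 CPM in control_iron libraries. The part of tissue dissociation in the members' values was not tested. ER chaperones, which answer to the unfolded protein response and not to HSF1, had 0 of 12 called and a median of -0.01. Their sum was 5500.0, 8848 and 5488 CPM in high_iron and 8686, 6809 and 5312 CPM in control_iron libraries, high in high_iron replicate 2 and in control_iron replicate 1. Calr, which encodes the ER lectin chaperone calreticulin, had 434, 497 and 454 CPM in high_iron and 633, 669 and 792 CPM in control_iron libraries. It was lower in every high_iron library and did not pass limma (log2 fold change -0.59 ± 0.14, limma adjusted p = 0.093), though it passed DESeq2 (adjusted p = 0.0058). Dnajb9, an ER J-domain protein, had a log2 fold change of 0.28 ± 0.23 (limma adjusted p = 0.63). Hspa5, the ER HSP70 also called BiP and named after its values were seen, had 1006, 2632 and 547 CPM in high_iron and 2281, 1316 and 678 CPM in control_iron libraries.

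**Figure D4:**
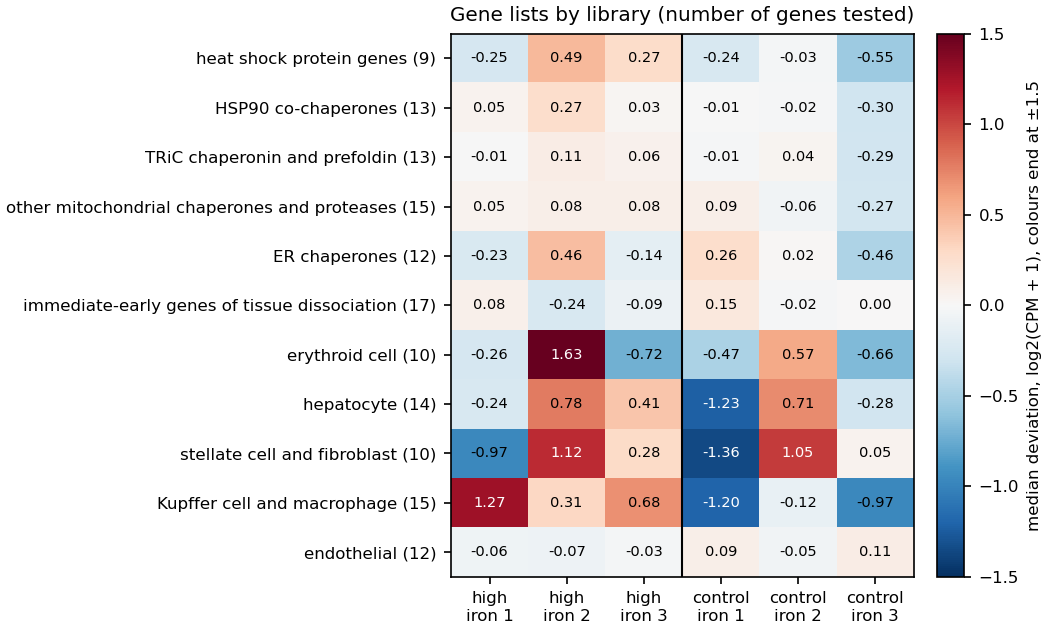
Median deviation of the tested genes of each list from their own mean over the 6 libraries, on log2(CPM + 1), in high_iron libraries on the left and control_iron libraries on the right; the number of genes tested is in brackets and colours end at ±1.5. The 9 heat shock protein genes stand at 0.49 in high_iron replicate 2 and -0.55 in control_iron replicate 3, and the 10 erythroid genes at 1.63 in high_iron replicate 2 and 0.57 in control_iron replicate 2.

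The rest of the chaperone network was read from 9 further lists of 98 genes, 90 of them tested. No gene of these passed with limma or edgeR (adjusted p under 0.05). Of the 90, 14 had an unadjusted limma p under 0.05 (12.1% of all genes), 11 higher (7.3% of all genes) and 3 lower. The log2 fold change was positive for 58 of 90 (49.5% of all genes). Its median was 0.07, against -0.003 over all genes tested. DESeq2 called 1, Sqstm1 (3.27% of all genes). In high_iron replicate 2 31 of the 90 (34.4%) were highest, against 17.3% of all genes. In control_iron replicate 3 37 (41.1%) were lowest, against 28.1% of all genes.

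Among regulators, Hsf1 itself had 63.9, 82.9 and 71.7 CPM in high_iron and 81.6, 75.1 and 57.1 CPM in control_iron libraries, which overlapped (log2 fold change 0.04 ± 0.17, limma adjusted p = 0.94). In that list of 8 genes, 6 tested and 0 called, the smallest p values were those of Ier5, an HSF1 cofactor (-0.68 ± 0.24, limma adjusted p = 0.29), and Hsf4 (0.62 ± 0.26, limma adjusted p = 0.39). Of the heat-inducible HSF1 targets outside the family, 14 were tested and 0 called, with a median of 0.04. Without adjustment 5 of the 14 had a limma p under 0.05, all higher in high_iron (7.3% of all genes in that direction). They were Bag3, Cacybp, Chordc1, Dnaja1 and Sqstm1. Sqstm1, the autophagy receptor p62, which is also a target of the oxidative stress factor NRF2, came closest: 387, 343 and 399 CPM in high_iron and 166, 248 and 223 CPM in control_iron libraries, with no overlap (0.84 ± 0.16, limma adjusted p = 0.0503).

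Partners of the HSP70 proteins had small values of both signs. Dnaja2 and Dnaja1, cytosolic J-domain partners, had 0.46 ± 0.15 and 0.46 ± 0.18 (limma adjusted p = 0.25 and 0.36) in a list of 12 tested genes with a median of 0.01. Bag3, a nucleotide exchange factor of chaperone-assisted autophagy, had 71.8, 114 and 87.1 CPM in high_iron and 71.3, 69.7 and 55.8 CPM in control_iron libraries (0.45 ± 0.19, limma adjusted p = 0.38). As with Hspa8, all its high_iron values were above its control_iron values, with the nearest pair at 71.8 CPM in high_iron and 71.3 CPM in control_iron. Hspbp1, an inhibitor of HSP70 nucleotide binding, was at -0.28 ± 0.15 (limma adjusted p = 0.50) in the same list of 8 tested genes, whose median was 0.08. Of 7 tested HSP70 and HSP110 genes outside the family, Hspa2 had 0.72 ± 0.30 and Hspa12b, which endothelial cells express, had -0.48 ± 0.25 (limma adjusted p = 0.38 and 0.47).

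The HSP90 co-chaperones had a median of 0.17 over 13 tested genes, 10 of them positive, and 0 passed. Chordc1, which binds HSP90, had 0.44 ± 0.17 and Fkbp5, a glucocorticoid-induced co-chaperone, had 0.35 ± 0.14 (limma adjusted p = 0.35 and 0.37). The list of genes named as other small heat shock proteins had a median of -0.09 over 6 tested genes. In it Hspb11 was at -0.55 ± 0.24 and Cryab at 0.46 ± 0.33 (limma adjusted p = 0.40 and 0.60). Whether Hspb11, listed by its name, acts as a chaperone was not tested. Of the 9 listed, 2, Hspb3 and Hspb7, were at 0 in every library. In mitochondria outside the chaperonin, 15 genes had a median of 0.08, led by the protease Htra2 at 0.65 ± 0.27 and the nucleotide exchange factor Grpel2 at 0.47 ± 0.19 (limma adjusted p = 0.37 and 0.36). Cct6a of the cytosolic chaperonin TRiC had 0.67 ± 0.32 and the prefoldin subunit Pfdn1 had -0.47 ± 0.20 (limma adjusted p = 0.44 and 0.39) in a list of 13 tested genes with a median of 0.12.

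**Figure D5:**
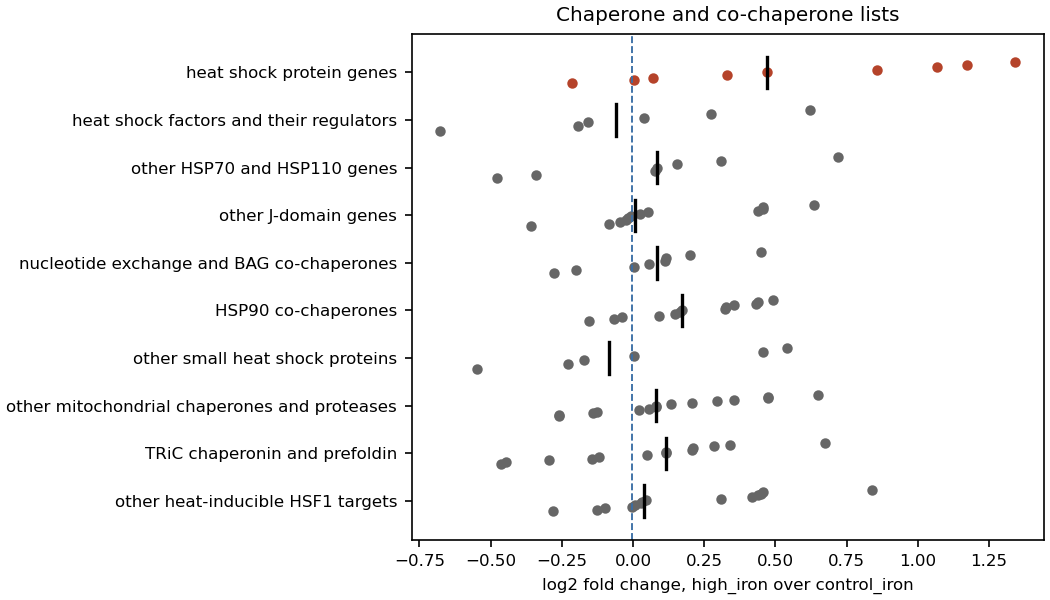
Log2 fold change (x axis, high_iron over control_iron on log2(CPM + 1)) of each tested gene of the heat shock protein family (red) and of 9 further chaperone lists (grey), 1 point a gene. Black bars mark the median of each list, 0.47 for the family and between -0.09 and 0.17 for the others, and the dashed line the median of all genes tested, -0.003.

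Among the tested genes whose pattern over the 6 libraries was most like the mean standardised level of the 9 members were Map4 (Pearson r = 0.991), Fbxo17 (0.980), Dnaja1 (0.975), Qars (0.974) and Lactb2 (0.970), out of 10193 candidates of at least 5 CPM. These values rank genes over 6 shared libraries and carry no test. Map4, which encodes a microtubule-associated protein, had 225, 402 and 318 CPM in high_iron and 232, 248 and 223 CPM in control_iron libraries. Map4 was higher in high_iron replicates 2 and 3 than in every control_iron library, and its high_iron replicate 1 lay within the control_iron range.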

How the data were processed

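RNA of sorted cells was isolated with a PicoPure kit and libraries were made with a SMARTer Ultra Low Input kit, per the labels' protocols; this kit is not strand-specific. STAR, HTSeq and edgeR and the build mm10 are named, without versions, in the submitters' processing notes. The authors deposited a table of 39179 genes with a normalized signal named CPM. Its 114253 values above 0 are all whole reads of a scaled library size (within 0.001 read, 100%), so reads were recovered. The deposited RPKM values equal CPM per kilobase of the deposited length (largest difference 8.0e-11) and were used only for levels per length. The labels call the 3 libraries of a group biological replicates.

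Genes with at least 1 CPM in at least 3 of 6 libraries were fitted with limma 3.58.1 (R 4.3.3, variance trend, group only, two-sided) on log2(CPM + 1). Alternatives on recovered reads were edgeR 4.0.16 and DESeq2 1.42.0, which called 120 and 424 genes; others used other pseudocounts, filters, scalings and libraries. The fits were checked on simulated reads, where DESeq2 made more false calls than limma and edgeR. Positions and overlaps come from GENCODE M21 (GRCm38, which is mm10), and copies from BLAST+ 2.17.0 (at least 95% identity over at least 50% of a transcript).

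Members and lists were chosen with earlier results of these data known; the erythroid list and the sums with copies were added after seeing the data. Named genes were all members, the called genes of each list or else 2 with the smallest p, and the 6 most alike in pattern, with 2 of these genes not reported here; genes named after their values were seen are marked so.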

Additional observations from a re-analysis of the deposited data

How the results depend on the processing

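Of 147 values of the 9 tested genes under 18 alternatives, 138 kept their direction and their side of the threshold, 6 changed sign and 3 passed the threshold. Hsp90aa1 changed sign with CPM on total reads (-0.0025) and without 3 libraries in turn (-0.08, -0.06 and -0.19), and Hsp90ab1 without 2 (-0.02 and -0.16); all were far from the threshold in every setting, and the cause was not tested. Hspa8 passed with DESeq2 (1.14, adjusted p = 0.040).

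The replicate numbers were not taken as pairs in the main fit. Same-numbered libraries deviated together with r of 0.128, 0.320 and 0.063, against -0.388 to 0.198 for the other pairings. High_iron replicates 1 and 3 were closer to other control_iron numbers. With 3 libraries a group, these values cannot decide whether the samples were paired. With the replicate block, Hspa8 (1.07, adjusted p = 0.0077) and Hsph1 (1.17, adjusted p = 0.018) passed, 2 members and 1 gene of the further chaperone lists, and 402 genes in all (3.1%).

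In the whole data set 133 genes passed, against 34 with no filter, 74 with no variance trend, 424 with DESeq2 and 27 to 183 without a library in turn (183, 88 and 53 without control_iron replicates 1 to 3, and 55, 43 and 27 without high_iron replicates 1 to 3). Members called were 0 whichever library was left out and 1 with DESeq2. Genes called in the further chaperone lists were 0 to 1 without a library, 1 with CPM on total reads and 1 with DESeq2, each time Sqstm1. Of 16 alternatives (15 for Ighm), the call was lost for Socs3 in 7, Clec4f in 7, Marco in 5, Hgf in 4, Csf1r in 2 and Ighm in 11.

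Leaving out a library moved Hspa1b between 0.75 and 1.97, Hspa1a between 0.60 and 1.32, Hsph1 between 0.54 and 1.65, Hspa8 between 0.74 and 1.35, Dnajb1 between 0.31 and 0.60, Hspd1 between 0.17 and 0.50, Hsp90aa1 between -0.19 and 0.15, Hsp90ab1 between -0.16 and 0.21 and Hspe1 between -0.39 and -0.03. Depth limits Hspb1 most, at 3 to 32 reads a library.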

Other observations

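Transcript length moved with library to a small degree. In control_iron replicate 3 genes under 1500 bases deviated by a median of 0.24 on the log2 scale, those of 1500 to 3000 bases by -0.03, those of 3000 to 6000 bases by -0.10 and those over 6000 bases by 0.02. In high_iron replicate 2 the medians of the same classes were -0.16, -0.04, 0.04 and 0.03. Of the members, Hspe1 (deposited length 1568 bases) was highest in control_iron replicate 3, where the median of its length class was -0.03. Hsph1 (7024 bases) was lowest in control_iron replicate 3 and highest in high_iron replicate 2, where the medians of its class were 0.02 and 0.03. The part of length in these values was not tested.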
